A study of Homo sapiens with 2 samples.

Results

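The contacts described here are fragment pairs on 1 chromosome whose midpoints lay from 500 kb to under 1 Mb apart in promoter-capture Hi-C of K562 cells. They were chosen by distance alone, leaving out chromosomes 9, 13 and 22. Of 138160 pairs in the deposited lists, 17326 were members, 10654 of them in the ponatinib list and 9307 in the DMSO list. Other distance classes on the same chromosomes held 8852 pairs under 50 kb, 84647 from 50 to 500 kb, 4514 from 1 to 2 Mb and 1840 at 2 Mb or more.

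K562 is an established line of chronic myelogenous leukaemia that carries the BCR-ABL1 fusion. One group received 100 nM ponatinib, a BCR-ABL1 kinase inhibitor, for 24 h, and the other received the vehicle DMSO for 24 h. Each group was 1 library from an equal number of cells, cut with HindIII and enriched with RNA probes for promoter fragments, the baits. The comparison asks which promoter contacts differ after kinase inhibition. There was no replicate, so no test of the treatment was possible and no difference below has a replicate check. Intervals are 95% intervals that cover counting error only and treat pairs as independent, which neighbouring fragments are not. Read depth is unknown. The lists hold no RNA, so cell markers could not be checked, but 1781 pairs joined chromosomes 9 and 22 in ponatinib and 1654 did so in DMSO.

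Chromatin is folded by cohesin, which extrudes loops until it meets CTCF bound to its motif, and most contacts of a promoter with its enhancers lie within the domains so formed. Contacts over longer spans are known from developmental genes in gene-poor neighbourhoods, from Polycomb-bound regions and from clusters of related genes such as the histone genes. In the mouse limb, the HOXD genes at one end of their cluster contact regulatory DNA on one flank, and the genes at the other end contact the opposite flank.

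The promoters below belong to the pair with the highest score in DMSO among these contacts (MTERF1 and GATAD1), to fragments among those with most contacts (EDN1 and HOXA13), and to KLF14, which lies among the partners of the KLHDC10 fragment. Each runs 5′ to 3′ from 250 bases before to 50 after a transcription start in RefSeq (GRCh38.p14). For EDN1, the most downstream of its starts is shown. Capitals mark a match to the CTCF core (CCNNNAG joined to NNGGC) in MTERF1, the TATA box (TATAAA) in EDN1 and GC boxes (GGGCGG) in KLF14 and HOXA13, searched on both strands and each motif on its own, so different motifs may overlap. GATAD1 has none of these.
MTERF1, chr7:91880653-91880952, minus strand: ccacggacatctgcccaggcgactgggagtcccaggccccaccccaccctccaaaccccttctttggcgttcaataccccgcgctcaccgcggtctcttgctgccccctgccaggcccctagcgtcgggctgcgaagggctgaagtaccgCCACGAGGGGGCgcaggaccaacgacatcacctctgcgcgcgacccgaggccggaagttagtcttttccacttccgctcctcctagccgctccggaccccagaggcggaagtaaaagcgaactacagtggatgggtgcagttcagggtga
GATAD1, chr7:92447232-92447531, plus strand: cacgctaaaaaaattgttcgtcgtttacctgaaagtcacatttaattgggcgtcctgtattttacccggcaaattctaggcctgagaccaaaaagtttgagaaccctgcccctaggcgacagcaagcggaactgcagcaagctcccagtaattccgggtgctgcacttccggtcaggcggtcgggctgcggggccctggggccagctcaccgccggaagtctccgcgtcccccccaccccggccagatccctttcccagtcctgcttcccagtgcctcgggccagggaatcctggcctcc
EDN1, chr6:12290111-12290410, plus strand: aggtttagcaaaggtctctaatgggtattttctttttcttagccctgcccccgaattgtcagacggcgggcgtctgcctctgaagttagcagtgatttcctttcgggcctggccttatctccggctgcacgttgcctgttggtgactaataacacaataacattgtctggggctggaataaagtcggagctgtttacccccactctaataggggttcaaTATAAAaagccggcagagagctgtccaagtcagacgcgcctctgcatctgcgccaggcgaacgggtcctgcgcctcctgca
KLF14, chr7:130734158-130734457, minus strand: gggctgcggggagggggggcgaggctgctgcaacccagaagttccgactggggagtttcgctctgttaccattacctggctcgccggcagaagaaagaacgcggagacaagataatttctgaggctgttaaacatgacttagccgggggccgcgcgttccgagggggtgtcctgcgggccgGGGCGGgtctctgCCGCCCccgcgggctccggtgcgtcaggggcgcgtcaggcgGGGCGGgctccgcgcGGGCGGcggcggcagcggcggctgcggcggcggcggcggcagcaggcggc
HOXA13, chr7:27200042-27200341, minus strand: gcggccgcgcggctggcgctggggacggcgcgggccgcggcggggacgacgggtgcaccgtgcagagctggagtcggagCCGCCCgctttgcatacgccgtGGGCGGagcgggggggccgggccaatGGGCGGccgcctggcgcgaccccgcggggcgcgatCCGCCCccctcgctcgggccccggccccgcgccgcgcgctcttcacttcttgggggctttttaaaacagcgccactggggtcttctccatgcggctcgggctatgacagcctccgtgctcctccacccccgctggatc

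Of 14167 promoters of genes with a listed bait fragment, 12.7% held the CTCF core, 8.53% the TATA box, 59.1% a GC box, 7.34% a GATA site (AGATAA) and 5.92% an AP-1 site (TGANTCA). Among 1251 promoters of genes with at least 5 listings at 500 kb to 1 Mb, the shares were 11.9% (10.2 to 13.8) for the CTCF core and 9.43% (7.87 to 11.2) for the TATA box. Genes with at least 20 listings had 80 promoters, of which 15 held the CTCF core, or 18.8% (10.9 to 29.0), and 14 the TATA box, or 17.5% (9.91 to 27.6). The interval for the TATA box lay above the share of all promoters and the one for the CTCF core included it. Promoters of 1 gene overlap and the histone genes repeat similar ones, so these 80 are not independent. A match is a description of the letters, not evidence of binding.

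More long-range contacts were listed after ponatinib than after DMSO. The ratio of numbers, 10654 over 9307, was 1.14 (1.11 to 1.18), against 1.08 (1.06 to 1.09) at 50 to 500 kb and 1.02 (0.989 to 1.06) under 50 kb. At 1 to 2 Mb it was 1.24 (1.17 to 1.31), and at 2 Mb or more 1.28 (1.17 to 1.40). The ratio was thus larger in each longer class, although the intervals of these last classes overlapped. These contacts made up 13.7% of the same-chromosome pairs in ponatinib and 12.99% in DMSO, a difference of 0.680 percentage points (0.335 to 1.02). Among pairs scoring at least 7 the interval of this difference was -0.0067 to 1.04, and among those scoring at least 10 it was -0.285 to 1.44, so both included 0. The ponatinib list was longer as a whole, and with both lists cut to equal length by score the numbers were 9603 in ponatinib and 9307 in DMSO, a log2 ratio of 0.05.

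Within the class, numbers declined with distance in both lists. The bin from 500 to 550 kb held 2444 pairs in ponatinib and 2161 in DMSO, and the last bin, from 950 to 1000 kb, held 397 in ponatinib and 324 in DMSO. The ratio was above 1 in 10 of 10 bins. It was lowest at 700 to 750 kb, at 1.05 (0.958 to 1.15), and highest at 800 to 850 kb, at 1.25 (1.12 to 1.41).

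**Figure D1:**
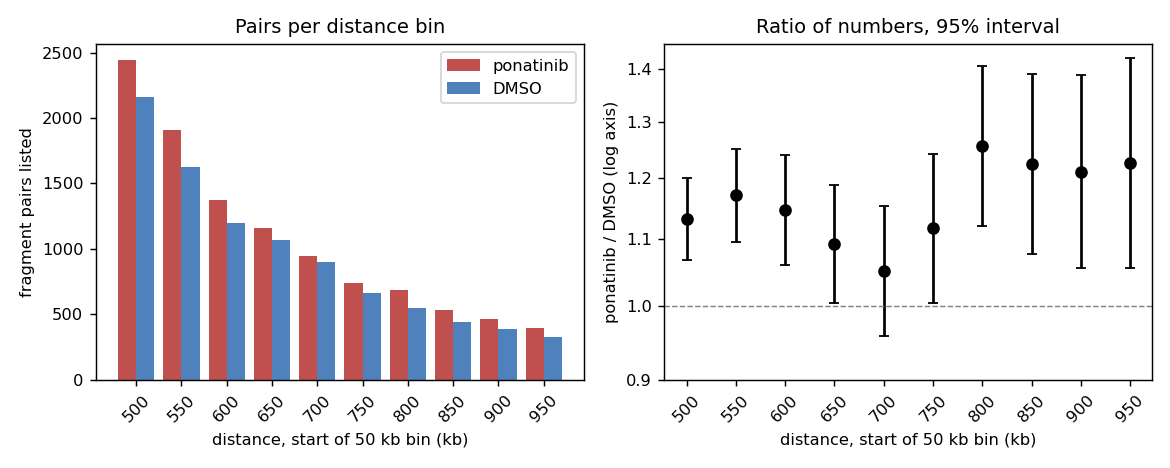
Left, fragment pairs listed in each 50 kb distance bin in ponatinib and in DMSO. Right, the ratio of ponatinib to DMSO in each bin with its 95% counting interval on a log axis; all 10 points lie above 1, and the interval at 700 to 750 kb crosses it.

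All 20 chromosomes analysed had a ratio above 1, and for 11 of them the interval included 1. Chromosome 11 had the highest ratio, with 743 pairs in ponatinib and 576 in DMSO, a ratio of 1.29 (1.16 to 1.44). Chromosome 1 held most pairs, 1553 in ponatinib and 1256 in DMSO, a ratio of 1.24 (1.15 to 1.33), while its pairs at all distances had a ratio of 1.08 (1.05 to 1.11). Chromosome 20 was lowest, with 154 in ponatinib and 151 in DMSO. Chromosome 7, which carries the HOXA cluster, had the largest share of its contacts in this class, 21.0% in ponatinib and 20.6% in DMSO.

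Few of these contacts were found in both libraries. A pair of the same 2 fragments stood in both lists for 2635 members, which is 15.2% of the 17326, against 27.6% of all same-chromosome pairs. A further 8019 were in ponatinib only, or 46.3% against 38.9% of all same-chromosome pairs, and 6672 in DMSO only, or 38.5% against 33.5%. The shared pairs were 24.7% of the ponatinib members (23.9 to 25.6) and 28.3% of the DMSO members (27.4 to 29.2). In other classes, 29.1% of the pairs at 50 to 500 kb, 11.9% at 1 to 2 Mb and 13.4% at 2 Mb or more were shared.

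Overlap followed the score, the authors' own value for an interaction, of which none was below 5. Of ponatinib members scoring 5 to under 6, 11.7% were in the DMSO list, and of DMSO members in that range 14.2% were in the ponatinib list. At a score of 20 or more, 148 of 154 ponatinib members were in the DMSO list (96.1%, 91.7 to 98.6), and 86 of 87 DMSO members were in the ponatinib list (98.9%, 93.8 to 100). Pairs in 1 list only were therefore mostly low in score, with medians of 5.97 in ponatinib and 5.94 in DMSO. The ratio of numbers was 1.15 (1.098 to 1.19) at 5 to under 6 and 1.77 (1.35 to 2.33) at 20 or more. The scores were not normalised between the libraries, so a bin may not cover the same contacts in both.

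Among the 2635 shared pairs, the median score was 8.08 in ponatinib and 7.68 in DMSO. The score was higher in ponatinib for 1465 of them (55.6%, 53.7 to 57.5), and the rank correlation of the scores across these pairs was 0.426. Scores of at least 10 made up 11.4% of the ponatinib members and 10.2% of the DMSO members, a difference of 1.18 points (0.311 to 2.04).

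**Figure D2:**
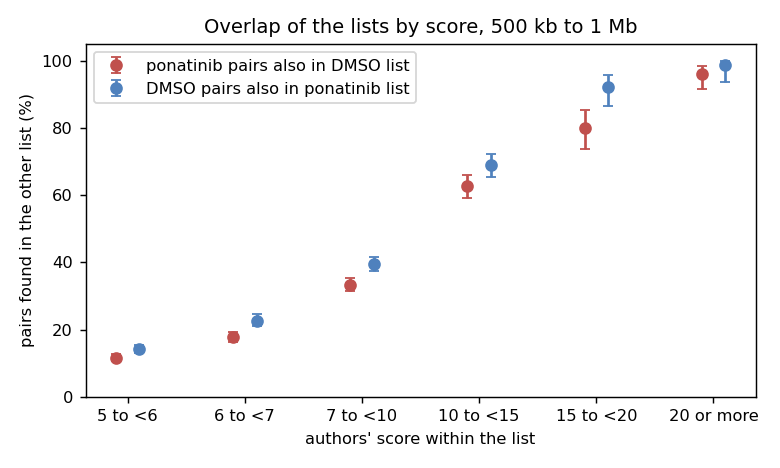
Share of pairs at 500 kb to 1 Mb found in the other list, by the authors' score within their own list, with 95% counting intervals, for ponatinib pairs and DMSO pairs. The share is 11.7% for ponatinib and 14.2% for DMSO in the lowest bin, and 96.1% for ponatinib and 98.9% for DMSO in the highest.

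The contacts spanned a median of 4 protein-coding genes, with quartiles of 2 and 7. A gene was counted when its lower coordinate lay between the 2 fragments, wherever its other end lay. Only 1002 pairs (5.78%) had no gene counted in this way, and the largest number was 61. The spanned DNA held a median of 5.94 genes per Mb, fewer than the 9.81 at 50 to 500 kb and more than the 2.70 at 1 to 2 Mb. Both ends were baits, a promoter-to-promoter contact, in 19.2% of ponatinib members and 19.3% of DMSO members, a difference of -0.0919 points (-1.19 to 1.00), and of 0.478 points (-0.652 to 1.61) with lists of equal length. Such contacts were more often shared: 657 were in both lists, 32.1% of those in ponatinib and 36.6% of those in DMSO, against 23.0% in ponatinib and 26.3% in DMSO for contacts with a fragment that is no bait.

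The partner fragments that were no bait numbered 12118, and 53.4% (52.5 to 54.3) overlapped a protein-coding gene, against 62.2% (61.8 to 62.7) at 50 to 500 kb. Most of them, 87.2%, were reached from 1 bait only. Relative to the direction of transcription, contacts leaned to neither side beyond counting error: for baits with 1 start, 50.6% of ponatinib contacts (49.3 to 51.8) and 50.3% of DMSO contacts (49.0 to 51.7) ran downstream. Single baits did lean to 1 flank. Of 785 bait fragments with 5 to 9 different partners, 570 had all of them on 1 side (72.6%, 69.3 to 75.7), against 41.6% (40.0 to 43.2) of fragments with as many partners at 50 to 500 kb. Of 49 fragments with at least 20 partners, 39 did so (79.6%, 65.7 to 89.8), against 26.1% (23.5 to 29.0). The lean was not particular to this class. At 1 to 2 Mb the shares were 81.5% (74.2 to 87.4) for 5 to 9 partners and 100% (78.2 to 100) for at least 20. Partners of 1 bait are often neighbours of each other, so these partners do not count as independent draws.

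Contacts were spread unevenly over the baits. Of 16547 listed bait fragments, 7437 had at least 1 such contact, with a median of 2 listings over both lists and a maximum of 91; 111 fragments had at least 20. The contacts of these 111 fragments were more often shared, at 40.9% of their different pairs against 11.2% of the others. A listing counts 1 pair in 1 list, so a shared pair gives 2. A minimum of listings therefore favours fragments with shared pairs, and this difference in sharing is not independent of how the 111 were picked.

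The HOXA cluster held the fragments with most contacts. HOX genes encode homeodomain transcription factors that set position along the body axis, and HOXA11 and HOXA13 act in limb and genital development. The fragment chr7:27190655-27198793 (hg38), at the 3′ end of HOXA13, had 51 contacts in ponatinib and 40 in DMSO, of which 25 were shared. The HOXA13 promoter fragment, chr7:27198794-27202692, had 37 in ponatinib and 33 in DMSO, and the HOXA11 fragment had 25 in each. The interval of the share held by ponatinib for the 3′ fragment, 45.2 to 66.4%, included the 53.4% of all listings, although its surplus of 11 tied for the second largest of any fragment. The partners of these fragments lay in one direction. For the HOXA13 promoter all 50 partner fragments lay at higher coordinates, 42 of them in JAZF1, a zinc finger gene, and 8 in TAX1BP1, which encodes an autophagy receptor. For the fragment at its 3′ end 65 of 66 did so, with 56 in JAZF1. For HOXA11 it was 40 of 41, with 37 in JAZF1.

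Along the cluster the side changed. The HOXA10 fragment had 9 partners at higher and 3 at lower coordinates, and the fragment of HOXA3, HOXA5 and HOXA6 had 1 at higher and 5 at lower coordinates. The HOXA2, HOXA3 and HOXA4 fragments had 1 or 2 partners each, all at lower coordinates. The HOXD cluster on chromosome 2 had the same kind of switch, with more even numbers. The HOXD13 and HOXD12 fragments each had 17 partners at lower and 1 at higher coordinates, and HOXD11 had 3 at lower and 4 at higher coordinates. The partners of HOXD9 (7), HOXD8 (11) and HOXD4 (2) all lay at higher coordinates. The 10 HOXD fragments had 65 contacts in ponatinib and 67 in DMSO, with 35 shared, and the 13 HOXA fragments had 138 in ponatinib and 131 in DMSO, with 56 shared. Neither cluster differed in number beyond counting error, at ratios of 0.970 (0.679 to 1.39) for HOXD and 1.05 (0.823 to 1.35) for HOXA.

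**Figure D3:**
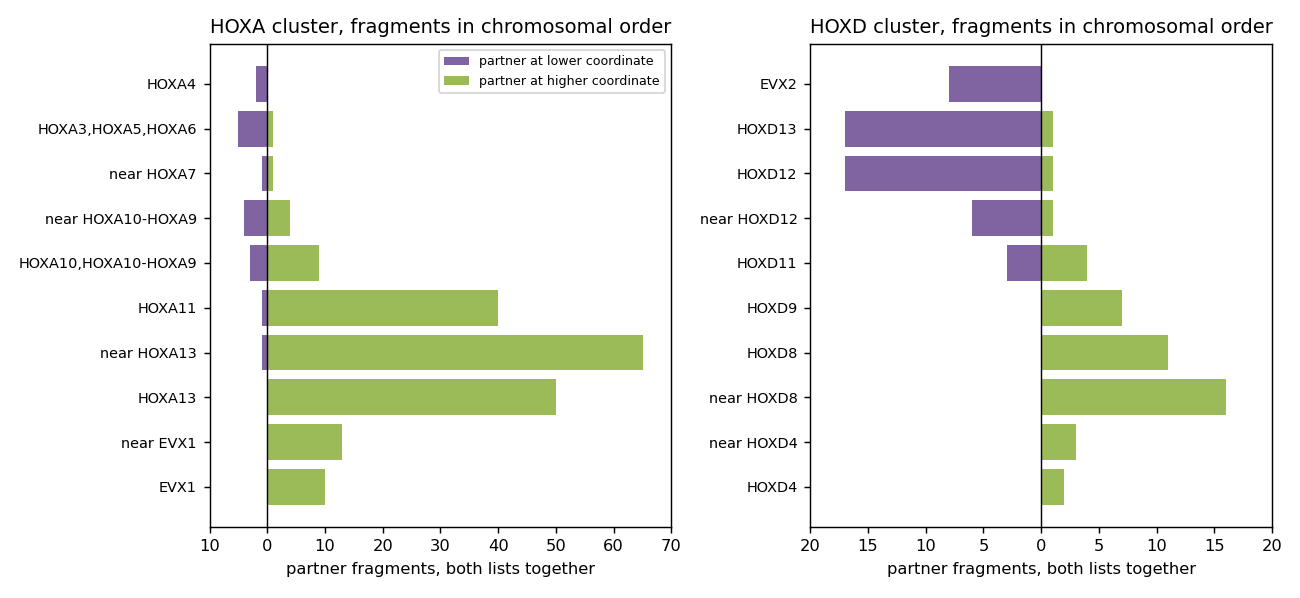
Partner fragments at 500 kb to 1 Mb, both lists together, for each bait fragment with at least 2 partners in the HOXA cluster (left) and HOXD cluster (right) in chromosomal order, with partners at lower coordinates drawn to the left and partners at higher coordinates to the right of 0. HOXA13 has 50 partners at higher and none at lower coordinates, and HOXD13 has 1 at higher and 17 at lower coordinates.

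Among other fragments with many contacts, the KLHDC10 fragment, whose gene encodes a Kelch-repeat protein, had 28 contacts in ponatinib and 29 in DMSO, with 24 shared; its 33 partners lay on the side of KLF14, a zinc finger transcription factor gene, and 29 of them overlapped no protein-coding gene. The EDN1 fragment (endothelin-1, a vasoconstrictor peptide) had 26 in ponatinib and 24 in DMSO, with 17 shared, all 33 partners at lower coordinates and 28 of them in no protein-coding gene. EDN1 had 27 contacts in ponatinib and 25 in DMSO at all distances on its chromosome, so 1 in each list fell outside this class. A fragment 21.4 kb from VPS41, a gene of endosome-lysosome fusion, had 29 in ponatinib and 27 in DMSO, with 25 shared. A fragment 89.4 kb from TMEM260 on chromosome 14 had 25 in ponatinib and 22 in DMSO. In the histone cluster of chromosome 6, the fragment of H2AC12 and H2BC12 had a surplus of 8, with 35 in ponatinib and 27 in DMSO, and partners on both sides, 21 at lower and 24 at higher coordinates.

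The highest scoring shared pair joined the promoter fragments of MTERF1, a mitochondrial transcription factor gene, and GATAD1, a chromatin-associated zinc finger gene, 568 kb apart, with a score of 50.5 in ponatinib and 53.1 in DMSO. Next in the order of the lower of both scores came EDN1 with chr6:11655146-11656012, 634 kb away, at 47.6 in ponatinib and 35.8 in DMSO. Then followed a bait in KAT6B, a histone acetyltransferase gene, with a fragment in ADK, the adenosine kinase gene, 756 kb away. The score of this pair was 34.8 in ponatinib and 35.5 in DMSO. A bait in SULF2, a heparan sulfatase gene, reached a fragment 0.862 kb from PREX1, 944 kb away, at 45.7 in ponatinib and 34.4 in DMSO. Baits in EGF and ENPEP, an aminopeptidase gene, were 515 kb apart, at 36.1 in ponatinib and 34.3 in DMSO. These pairs were picked by the lower of both scores, so a high score in both libraries follows from the choice.

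Of the pairs in ponatinib only, the highest scores were 27.9 for a bait 12.8 kb from METTL13 with PIGC, 26.9 for a bait in PRICKLE1 with a bait 60.7 kb from ADAMTS20, and 24.7 for FGF18, a fibroblast growth factor gene, with FBXW11, a ubiquitin ligase gene. Of those in DMSO only, they were 20.2 for POLR1F with ABCB5, 18.3 for POU3F1 with a fragment 542 kb away, and 17.9 for PAMR1 with COMMD9. A pair absent from a list may have scored just below the lowest score kept there, 5.

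Numbers per bait fragment were compared as log2((ponatinib + 1)/(DMSO + 1)) for the 1308 fragments with at least 5 listings. Of these, 190 had at least 2-fold more contacts in ponatinib (14.5%) and 83 at least 2-fold fewer (6.35%). Over all same-chromosome pairs, 10.6% of 10211 fragments had at least 2-fold more and in 6.89% the number was lower by 2-fold or more. For the 1308 fragments the log2 ratio had a median of 0.22. Dividing the ponatinib numbers by the overall ratio gave 136 fragments with more and 85 with fewer, and lists of equal length gave 145 with more and 94 with fewer. Among all 7437 fragments, 2380 had contacts of this class in ponatinib only and 2030 in DMSO only.

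The fragment with the largest surplus in ponatinib was that of CA1, a carbonic anhydrase gene of red cells, with 23 contacts in ponatinib and 10 in DMSO, 6 of them shared. Ponatinib held 69.7% of its listings (51.3 to 84.4), against 53.4% over all genes. Its 27 partners all lay at higher coordinates, 22 of them in no protein-coding gene. The neighbouring CA2 fragment had 22 in ponatinib and 21 in DMSO, nearly equal numbers. CA1 had 1 contact outside this class, in DMSO.

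KRT28, a hair follicle keratin gene, followed with 26 contacts in ponatinib and 15 in DMSO, the same surplus as the fragment at the 3′ end of HOXA13, reaching across the keratin cluster to KRT9, KRT14, KRT35 and others. A bait within TANC2, a synaptic scaffold gene, had 17 in ponatinib and 8 in DMSO, with 9 of 19 partners in MRC2 and 7 in MARCHF10. ONECUT2, a transcription factor gene, had 18 in ponatinib and 9 in DMSO, with all 23 partners inside WDR7. XPR1, the phosphate exporter gene, had 11 in ponatinib and 2 in DMSO. At all distances on its chromosome it had 59 in ponatinib and 34 in DMSO. PTGER3, a prostaglandin E receptor gene, had 14 in ponatinib and 5 in DMSO, and a fragment 112 kb from ZSWIM6 had 20 in ponatinib and 11 in DMSO, with 21 of 22 partners in NDUFAF2. Of the different pairs of these fragments, the share in both lists ran between 17.4% for ONECUT2 and 40.9% for the fragment near ZSWIM6, against 15.2% of the whole class. The interval of the share held by ponatinib excluded 53.4% for XPR1 (54.6 to 98.1) and included it for CA1, KRT28, ONECUT2 and PTGER3. CA1 and the fragments named here were chosen for their surplus, and the intervals take no account of that choice.

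Fewer contacts in ponatinib were found at CALCRL, a calcitonin receptor-like receptor gene, with 12 in ponatinib and 19 in DMSO, 10 of them shared. All CALCRL contacts on its chromosome were in this class. A fragment holding MIR129-1, 32.8 kb from LEP, had 7 in ponatinib and 14 in DMSO. TMEM65, a mitochondrial membrane protein gene, had 2 in ponatinib and 9 in DMSO. KRT32, a hair keratin gene in the same cluster as KRT28, had 3 in ponatinib and 9 in DMSO. The interval of the share held by ponatinib, 5.49 to 57.2%, included 53.4%, as it did for KRT28. The fragment of PKP4-AS1 had 8 in ponatinib and 14 in DMSO, with 12 of 16 partners in UPP2, and that of BAZ2B and MARCHF7 had 2 in ponatinib and 8 in DMSO, with all 9 partners in TANC1. PPP1R21 (11 in ponatinib, 17 in DMSO), SH3BGRL2 (5 in ponatinib, 11 in DMSO) and a bait within COL9A1, a collagen gene (16 in ponatinib, 22 in DMSO), had the same deficit as the last of these. For CALCRL and PPP1R21 the interval of the share held by ponatinib included 53.4%, and for TMEM65 it was 2.28 to 51.8. Because these fragments were chosen for their deficit, their intervals likewise take no account of the choice.

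**Figure D4:**
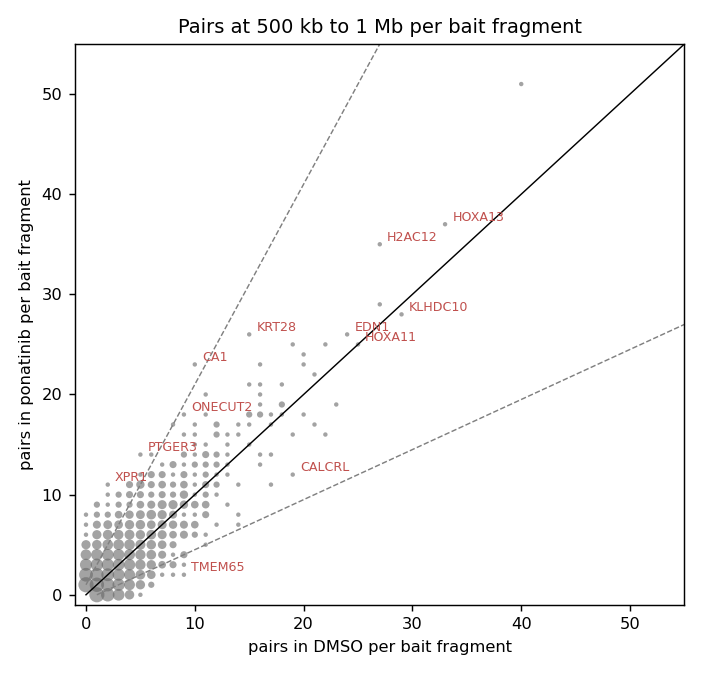
Contacts at 500 kb to 1 Mb per bait fragment, ponatinib on the vertical and DMSO on the horizontal axis; point size grows with the number of fragments at a position, the solid line marks equal numbers and the dashed lines a 2-fold ratio after adding 1. The HOXA13 and KLHDC10 fragments lie near the solid line, CA1 and XPR1 above the upper dashed line and TMEM65 below the lower one.

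Neighbouring contacts often came together. Joining pairs whose both ends lay within 20 kb of each other gave 12355 runs, of which 9339 held 1 pair and 639 at least 5. Counted as runs, the ratio of ponatinib, with 7883, to DMSO, with 7260, was 1.09.

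Some fragments were reached from many baits. The 5 that led were 3 fragments of the histone cluster, led by chr6:27139674-27144096, a fragment in SNX10-AS1 and a fragment of chromosome 1, which tied with a further histone cluster fragment at 7 baits. The first was reached from 9 baits in ponatinib and 8 in DMSO. The SNX10-AS1 fragment, chr7:26374605-26375319, was reached from 4 baits in ponatinib and 4 in DMSO, 8 different ones in all, among them those of HOXA3, HOXA4, HOXA10 and HOXA11. The chromosome 1 fragment, chr1:45307524-45308926, was reached from 6 baits in each list, among them those of KIF2C and PLK3.

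Some regions were chosen after their values were seen. The one around the S100 genes and RPS27 on chromosome 1 had 54 contacts in ponatinib and 29 in DMSO, a ratio of 1.86 (1.16 to 3.03), and its interval takes no account of the choice. The region of KAT6B and ADK on chromosome 10 had 50 in ponatinib and 44 in DMSO, with 33 shared. The histone cluster had 174 in ponatinib and 140 in DMSO, a ratio of 1.24 (0.989 to 1.56).

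Gene groups differed in how far their contacts reached. Over all 12444 genes with a listed bait fragment, 12.6% of the same-chromosome pairs of both lists lay at 500 kb to 1 Mb. The share was 34.2% (25.7 to 43.5) for neuron adhesion and synapse genes, 31.7% (27.3 to 36.3) for developmental transcription factor genes and 26.3% (21.6 to 31.5) for ERK feedback and immediate early genes. It was 7.90% (5.84 to 10.4) for cell cycle genes, 6.38% (3.62 to 10.3) for lymphoid genes and 4.49% (2.68 to 7.0) for cholesterol and fatty acid synthesis genes. Without the 3 members with most listings in each list, the share was 15.5% (7.35 to 27.4) for neuron genes, left without GRIN2A, DLG2 and CNTN5, and 5.53% (2.79 to 9.68) for ERK genes, left without PHLDA1, JUN and DUSP4. For developmental transcription factor genes, without FOXC1, SOX2 and TFAP2B, it was 21.9% (17.5 to 26.8), and the interval still lay above 12.6%. In the neuron list, DLG2 shared with TMEM126B a fragment that had 7 contacts in ponatinib and 5 in DMSO.

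**Figure D5:**
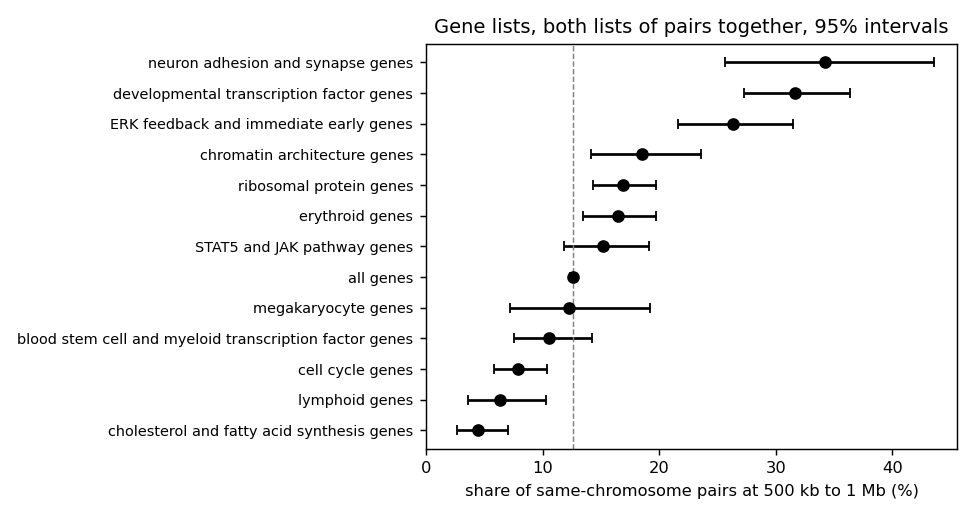
Share of the same-chromosome pairs of each gene list that lie at 500 kb to 1 Mb, both lists of pairs together, with 95% counting intervals; the dashed line marks all genes at 12.6%. Neuron genes are highest at 34.2%, and at 15.5% without GRIN2A, DLG2 and CNTN5. Developmental genes follow at 31.7%, and cholesterol and fatty acid synthesis genes are lowest, at 4.49%.

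Between the treatments, genes as a whole had a small surplus in ponatinib. Of 5546 genes with a contact of this class, 2636 had more in ponatinib, 2022 had fewer and 888 had equal numbers. Among the 1069 genes with at least 5 listings, 161 (15.1%) had at least 2-fold more and 73 (6.83%) at least 2-fold fewer. These genes share fragments in part, so they are not independent.

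Ribosomal protein genes, which encode the protein part of the ribosome, had 78 contacts in ponatinib and 52 in DMSO. The ratio was 1.5 (1.04 to 2.17), against 1.15 (1.11 to 1.19) over all genes, a value that the wider interval included. Of 53 members with a bait, 25 had such contacts, and 14 of these had more in ponatinib, 5 fewer and 6 equal numbers. Their median log2 ratio was 0.50, against 0.00 over all genes with a contact. Of the 10 with at least 5 listings, 2 had at least 2-fold more and 0 at least 2-fold fewer. Over all 1069 such genes the shares were 15.1% with more and 6.83% with fewer. RPL15 had 6 in ponatinib and 1 in DMSO, and RPL34 had 3 in ponatinib and 6 in DMSO.

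Developmental transcription factor genes had 78 contacts in ponatinib and 56 in DMSO, a ratio of 1.39 (0.976 to 2.00). Of 26 members with such contacts, 17 had more in ponatinib and 8 fewer. Ponatinib held 58.2% of the listings (49.4 to 66.7), and 75% (61.1 to 86.0) of those scoring at least 7. SOX2, a stem cell factor gene, had 13 in ponatinib and 9 in DMSO, TFAP2B had 10 in ponatinib and 6 in DMSO, and FOXC1 had 14 in ponatinib and 11 in DMSO, while TBX3 had 1 in ponatinib and 4 in DMSO. Neuron genes had 23 in ponatinib and 17 in DMSO, with GRIN2A, an NMDA receptor gene, at 10 in ponatinib and 6 in DMSO. Both intervals of the ratio, for neuron genes 0.692 to 2.70, included 1.

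Lists of genes downstream of BCR-ABL1 had close totals in both libraries. Members of the ERK list had 43 contacts in ponatinib and 42 in DMSO, among them PHLDA1 with 17 in ponatinib and 15 in DMSO, JUN with 12 in ponatinib and 13 in DMSO, and DUSP4, an ERK phosphatase gene, with 9 in ponatinib and 8 in DMSO. The STAT5 and JAK list had 31 in ponatinib and 30 in DMSO. In it SOCS2, a STAT5 target that dampens cytokine signalling, had 16 in ponatinib and 10 in DMSO, CISH, another such target, had 5 in ponatinib and 7 in DMSO, and CCND1 had the same 9 contacts in both. The intervals of the ratio were wide, 0.653 to 1.61 for ERK and 0.605 to 1.77 for STAT5 and JAK.

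Erythroid genes had 53 contacts in ponatinib and 40 in DMSO, of which CA1 and CA2 gave 45 in ponatinib and 31 in DMSO. TRIM58, a ubiquitin ligase gene of late red cell precursors, had 2 in ponatinib and 5 in DMSO. Chromatin architecture genes had 25 in ponatinib and 27 in DMSO, with STAG1, a cohesin subunit gene, at 9 in ponatinib and 7 in DMSO. Cell cycle genes had 23 in each list, blood stem cell and myeloid transcription factor genes 20 in ponatinib and 18 in DMSO, and megakaryocyte genes 8 in each. Lymphoid genes, markers of cells that K562 is not, had 10 in ponatinib and 5 in DMSO, and the cholesterol and fatty acid synthesis list had 11 in ponatinib and 7 in DMSO.

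Most of the blood and pathway genes named next had little or no contact at this range. So did many genes: 6898 of the 12444 with a listed bait fragment had none. MYC had 4 in ponatinib and 2 in DMSO, out of 50 in ponatinib and 33 in DMSO at all distances. MYB had none in ponatinib and 1 in DMSO, and CTCF had 2 in ponatinib and none in DMSO. GATA1, TAL1, LMO2, IKZF1, BCL11A, KLF1, HBB, HBG1, CCNB1, CDK6, PIM1 and BCL2L1 had no listed contact from 500 kb to 1 Mb in either library. At all distances PIM1 had 26 contacts in ponatinib and 29 in DMSO. KLF1 and HBB each had only 1 in ponatinib and 2 in DMSO. GATA2, RUNX1 and STAT5A had no listed bait fragment and were not analysed here.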

How the data were processed

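Contacts were measured by promoter-capture Hi-C in 1 K562 library per treatment. The authors deposited 1 list per library with a bait fragment, a partner fragment and a score, read here as each interaction's own score; how the score was made, the aligner, the caller and the threshold are not stated by the labels or files used here. Coordinates are on hg38, as the submitters' processing notes list it. The files hold no read counts, so depth is unknown.

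A contact was an unordered pair of fragments, and distance was taken between midpoints. Contacts were shared when the identical pair was in both lists. Protein-coding genes were placed on bait fragments by their transcription starts in a RefSeq promoter table (15842 of 20056 genes, 22175 starts), and otherwise by either end of the gene. Log2 ratios of numbers used a pseudocount of 1, and fragments or genes needed at least 5 listings. Intervals were Clopper-Pearson for shares and ratios and Newcombe for differences of shares. Those for ratios and for differences were tried on simulated independent counts. This cannot show how they behave for neighbouring pairs, which are not independent. Python 3.11.15, pandas 2.3.3, SciPy 1.17.1 and networkx 3.6.1 were used.

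The members and gene lists were chosen with earlier results of these data known. Named were the 8 fragments with most contacts, the 6 with the largest surplus and the 6 with the largest deficit with ties, the 5 highest scoring shared pairs and 3 in each list alone, the 5 partner fragments reached from most baits, a fixed set of blood and BCR-ABL1 pathway genes, and in each gene list at most 2 members on either side with the largest differences. Other genes and the regions were named after their values were seen, and some genes are not reported here. As alternatives the score minimum was set to 7 or 10, and others were lists of equal length, ends within 5 or 10 kb, distance between nearest edges, all chromosomes, no fragment over 20 kb, a minimum of 10 listings, a pseudocount of 0.5, division of the ponatinib numbers by the overall ratio and, added after seeing the data, no chromosome 1 and gene lists without their 3 members with most listings.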

Additional observations from a re-analysis of the deposited data

How the results depend on the processing

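The promoter-to-promoter difference, -0.0919 points as reported with an interval that included 0, turned to 0.478 with lists of equal length and was -1.43 at a score of at least 10. The log2 ratio of numbers, 0.20 as reported, was 0.26 at a score of at least 7, 0.35 at a score of at least 10 and 0.045 with lists of equal length. The share of DMSO contacts also in the ponatinib list, 28.3% as reported, was 37.1% at a score of at least 7, 44.9% at 10, 27.1% with equal lengths, 50.3% with both ends within 5 kb and 55.8% within 10 kb. The share of ponatinib contacts also in the DMSO list, 24.7% as reported, was 31.1% at 7, 35.1% at 10, 26.3% with equal lengths, 48.2% within 5 kb and 54.4% within 10 kb. The difference of the share of same-chromosome contacts, 0.680 points as reported, was 0.520 at 7 and 0.580 at 10, with intervals that included 0. Fragments with at least 2-fold more contacts, 190 as reported, numbered 65 at 7, 19 at 10 and 41 with a minimum of 10 listings; those with at least 2-fold fewer, 83 as reported, numbered 17 at 7, 2 at 10 and 14 with that minimum. Fewer contacts and fragments enter these settings. After dividing by the ratio of numbers 136 had more and 85 fewer, and with equal lengths 145 had more and 94 fewer. Without chromosome 1, an alternative chosen after seeing the data, the log2 ratio was 0.18 and 152 fragments had more and 68 fewer. The ribosomal protein genes had 78.3% of their listings in ponatinib at a score of at least 7, against 60.0% as reported, and the developmental transcription factor genes 75% at 7 and 77.8% at 10, against 58.2% as reported. Single genes with 1 contact left at 7 turned, RPL34 to 100% in ponatinib against 33.3% as reported and TRIM58 to 100% against 28.6%; EDN1, JUN, KLHDC10, DUSP4 and THBS1, near even as reported or low in number, also crossed 50% under an alternative, as did the lists of blood transcription factor, STAT5 and JAK, ERK and chromatin genes, all near even as reported, and the cholesterol list, at 0% at 10 against 61.1% as reported. CA1 had 58.8% at a score of at least 7 (32.9 to 81.6) and 80% at 10 (28.4 to 99.5), against 69.7% as reported. Without read counts it cannot be told how depth shaped the lists, and low scores recur least. No paired analysis was possible because each treatment was 1 library.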
